A study of Chlorocebus aethiops vervet with 14 samples.

Results

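P2RY12, ITGAM, VWF and SLC2A1 mark microglia and the brain's vessels, and their levels were followed in laser-captured tissue of the monkey lateral geniculate nucleus. Every probe set of the rhesus array that carries only one of these 4 symbols in the platform annotation was taken, which gave 7 probe sets of 52766 outside the controls. P2RY12, VWF and SLC2A1 have 2 probe sets each and ITGAM has 1, and each probe set is reported apart. Of the 7, 4 reached the signal filter and were tested, 1 for each gene, and 3 lay below it.

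The lateral geniculate nucleus is the relay of the thalamus between retina and visual cortex, with magnocellular (M) and parvocellular (P) layers. The animals were normal adult male vervet monkeys, with no treatment, and each group holds 3 arrays from individual animals. The groups are neuronal cell bodies captured from M layers (M neurons), neuronal cell bodies captured from P layers (P neurons), heterogeneous captures of M layers (M layers) and heterogeneous captures of P layers (P layers). All groups share the cresyl violet stain by which cells were found, and RNA that went through repeated amplification. Vervet RNA was hybridised to probes of another species, the rhesus macaque, and sequence mismatch can dim a probe set on all arrays, so levels are compared within a probe set only. The labels do not say if one animal gave material to several groups.

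Microglia are the resident macrophages of brain tissue. P2RY12 is the ADP receptor by which their processes find injured cells, and ITGAM (CD11b) is the alpha subunit of complement receptor 3, which takes up complement-tagged material and is also found on blood monocytes and granulocytes. VWF is the large clotting glycoprotein that endothelial cells store and release to capture platelets. SLC2A1 (GLUT1) carries glucose across the blood-brain barrier, is dense in the endothelium of brain capillaries and is also present in astrocytes.

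The arrays differed in ways that touch what follows. The median signal ran from 11.9 to 14.8 over the 12 arrays, and the trimmed mean from 69.6 to 90.7 in neuron captures and from 60.1 to 74.3 in layer captures. The instrument records place the arrays on 3 fluidics stations. Station 3 ran all 3 M neuron arrays and P neuron array 1, station 4 ran P neuron arrays 2 and 3 with M layer arrays 1 and 2, and station 5 ran M layer array 3 with all 3 P layer arrays. No station held both captures of one layer type, so a comparison of layer with neuron captures within a station and a layer type could not be made. Results are therefore given with the station as a block as well. Station 4 alone then links layer to neuron captures, through P neurons and M layers. The fit takes M minus P in neurons from station 3, with P neuron array 1 alone for P. It takes M minus P in layers from station 5, with M layer array 3 alone for M. Differences with the station block are thus indirect and rest on few arrays.

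All 4 tested probe sets were brighter in layer captures than in neuron captures when M and P were averaged. On the scale of log2(signal + 16), the rise was 0.83 ± 0.17 (SE) for P2RY12, 0.48 ± 0.16 for ITGAM, 0.92 ± 0.19 for VWF and 0.85 ± 0.13 for SLC2A1, from 6 arrays against 6. On this scale changes of dim probe sets come out too small. The 95% intervals were 0.48 to 1.18 for P2RY12, 0.15 to 0.81 for ITGAM, 0.53 to 1.31 for VWF and 0.57 to 1.13 for SLC2A1. Against a background of 24.1% of 26383 probe sets called in either direction and 4.59% called higher (19.5% lower), 4 of 4 tested members were called higher by limma at an adjusted p under 0.05. In bulk captures such as these, fewer cells of a type and less RNA per cell cannot be told apart.

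P2RY12 (MmugDNA.13354.1.S1_at) read 45.8, 24.4 and 60.3 in M neurons and 27.1, 41.8 and 41.1 in P neurons. It read 99.7, 69.6 and 77.2 in M layers and 90.4, 60.2 and 98.3 in P layers. Within each layer type every layer array exceeded every neuron array, and across both types the ranges met at the brightest M neuron array and the dimmest P layer array. The mean signal was 43.5 ± 18.0 (SD, n = 3) in M neurons, 36.7 ± 8.27 in P neurons, 82.2 ± 15.7 in M layers and 83.0 ± 20.1 in P layers. The neuron capture thus held 53.0% of the layer signal in M and 44.2% in P as deposited. With each array scaled to the same trimmed mean these shares were 43.3% and 35.0%.

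The P2RY12 rise corresponded to a 1.78-fold change of signal + 16 with an adjusted p of 0.00127 in limma. All same-numbered pairs, 6 of 6, were higher in the layer capture. With no overlap within either layer type that count is fixed whatever the numbering, here and for VWF and SLC2A1. For P2RY12 a station block gave 0.62 ± 0.38 (limma, adjusted p = 0.383), and a pseudocount of 64 in place of 16 gave 0.50 (adjusted p = 0.00115). In M alone the difference was 0.76 ± 0.24 (limma, adjusted p = 0.0465) and in P alone it was 0.90 ± 0.24 (adjusted p = 0.0206). The M call sat close to the threshold and was lost without any one of M neuron arrays 1 and 2, P neuron arrays 2 and 3, the 3 M layer arrays and P layer arrays 1 and 3, with adjusted p from 0.0521 to 0.189. Without M neuron array 2, the dimmest array for P2RY12, the M difference was 0.50. The P call was lost without P neuron array 1 (adjusted p = 0.0881), P layer array 1 (0.0883) or P layer array 3 (0.115).

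ITGAM (MmugDNA.6976.1.S1_at) read 72.4, 30.8 and 45.1 in M neurons and 46.5, 43.4 and 29.8 in P neurons. It read 58.9, 73.9 and 79.1 in M layers and 68.0, 68.8 and 53.8 in P layers. M neuron array 1 was as bright as the layer arrays, so the M groups overlapped, whereas the P groups did not. Mean signals were 49.4 ± 21.2 (SD, n = 3) in M neurons, 39.9 ± 8.85 in P neurons, 70.6 ± 10.5 in M layers and 63.5 ± 8.46 in P layers. The neuron captures held 70.0% of the layer signal in M and 62.8% in P, the smallest drop of the 4 tested probe sets. After scaling to the same trimmed mean these shares were 59.3% and 51.5%.

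ITGAM passed the test in M and P together (1.40-fold, limma, adjusted p = 0.0323), with 5 of 6 same-numbered pairs higher in the layer capture. It did not pass in M alone, at 0.45 ± 0.22 (limma, adjusted p = 0.229), or in P alone, at 0.52 ± 0.22 (adjusted p = 0.155). The joint call was lost without M neuron array 2 or 3, P neuron array 3, M layer array 2 or 3, or P layer array 1 or 2, with differences from 0.37 to 0.47 and adjusted p from 0.061 to 0.0886. The difference with a station block was 0.51 ± 0.37 (limma, adjusted p = 0.460), and with a pseudocount of 64 it was 0.28 (adjusted p = 0.0346).

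VWF (MmuSTS.2906.1.S1_at) read 20.5, 14.4 and 9.75 in M neurons and 27.7, 18.3 and 2.00 in P neurons. It read 45.0, 39.4 and 37.8 in M layers and 32.9, 46.6 and 47.1 in P layers. Every layer array exceeded every neuron array, a separation shown by 1.96% of all tested probe sets. Mean signals were 14.9 ± 5.37 (SD, n = 3) in M neurons, 15.99 ± 13.003 in P neurons, 40.7 ± 3.81 in M layers and 42.2 ± 8.09 in P layers. The neuron groups lay on average at percentile 50.5 (M) and 46.5 (P) of all probe sets on their arrays, and the layer groups at 72.5 and 73.5.

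The VWF difference was 1.89-fold on signal + 16 (limma, adjusted p = 0.00124) and 6 of 6 same-numbered pairs were higher in the layer capture. It was the one member whose joint call held with the station as a block, at 1.54 ± 0.39 (limma, adjusted p = 0.0416). On the neuron side that fit links the captures through P neuron arrays 2 and 3 only, which read 18.3 and 2.00 for VWF. Leaving out single arrays under the block was not tested, so the call is not shown to hold without P neuron array 3. Because the VWF neuron signal is low, the size without the block depends on the pseudocount, with 1.65 at a pseudocount of 1 and 0.41 at 64. The difference was 0.89 ± 0.26 in M (limma, adjusted p = 0.0349) and 0.95 ± 0.26 in P (adjusted p = 0.0263). P neuron array 3, at 2.00, carried part of the P difference, which was 0.58 without it (limma, adjusted p = 0.159). The P call was also lost without P layer array 2 (adjusted p = 0.067) or 3 (0.115), and the M call without M neuron array 2 or 3 or any one M layer array, with adjusted p from 0.0559 to 0.145.

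SLC2A1 (MmuSTS.3872.1.S1_at) read 436, 351 and 437 in M neurons and 354, 376 and 508 in P neurons. It read 616, 763 and 930 in M layers and 725, 828 and 658 in P layers. The dimmest layer array lay above the brightest neuron array, as in 1.96% of all tested probe sets. Mean signals were 408 ± 49.3 (SD, n = 3) in M neurons, 413 ± 83.4 in P neurons, 770 ± 157 in M layers and 737 ± 85.9 in P layers. The neuron captures kept 53.0% of the layer signal in M and 56.0% in P. After scaling to the same trimmed mean these shares were 45.6% and 45.3%.

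SLC2A1 had the smallest p of the members, at 1.80-fold on signal + 16 (limma, adjusted p = 0.000141), with 6 of 6 same-numbered pairs higher in the layer capture. The difference was 0.88 ± 0.19 in M (limma, adjusted p = 0.00587) and 0.82 ± 0.19 in P (adjusted p = 0.00932). Leaving out any single array of the 12 kept all 3 SLC2A1 calls. The joint difference with a station block was 0.37 ± 0.30 (limma, adjusted p = 0.530), less than the reported value by over a factor of 1.5.

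In M layers against M neurons 3 of 4 tested members were called higher, where 10.7% of all tested probe sets were called and 2.86% were called higher. In P the count was also 3 of 4, where 10.2% were called and 1.41% were called higher. All M layer arrays stood above all M neuron arrays in 3 of 4 members, against 7.12% of tested probe sets, and in P this held for 4 of 4 members, against 6.15%. No member was called in M or in P alone once the station was a block.

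Arrays of station 4 allow a look at both captures on one instrument, though of different layer types. P neuron arrays 2 and 3 there read 41.8 and 41.1 for P2RY12, against 99.7 and 69.6 in M layer arrays 1 and 2. For VWF the readings were 18.3 and 2.00 against 45.0 and 39.4. For SLC2A1 they were 376 and 508 against 616 and 763, and for ITGAM 43.4 and 29.8 against 58.9 and 73.9. In all 4 the layer arrays were higher, with no test made.

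The scale of the arrays bears on these sizes, since the deposited values share no common trimmed mean. As deposited, the median probe set was lower in layer captures by a log2 difference of -0.13 (M and P together). Quantile normalisation moved that median by 0.13 and scaling each array to one trimmed mean moved it by 0.19. Relative to the median, the P2RY12 difference was 0.96 as deposited, 1.01 after quantile normalisation and 0.99 after scaling. The same 3 values were 0.61, 0.64 and 0.63 for ITGAM, 1.05, 0.99 and 1.02 for VWF, and 0.98, 1.14 and 1.05 for SLC2A1. The split of all calls did move with the scale, with 19.1% of calls higher in layers as deposited, 48.5% after quantile normalisation and 55.1% after scaling. ITGAM in P became a call under both (limma, adjusted p = 0.0402 and 0.0272).

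The 3 remaining probe sets were dim, and their values are descriptions without a main test. The second P2RY12 probe set (MmuSTS.543.1.S1_at) ran from 0.824 to 12.8 over the 12 arrays, and its brightest array was an M neuron array. Its group means were 5.27 ± 6.54 (SD, n = 3) in M neurons, 1.65 ± 0.786 in P neurons, 6.38 ± 3.70 in M layers and 6.09 ± 3.76 in P layers. The second VWF probe set (MmugDNA.8805.1.S1_at) ran from 1.98 to 12.1. Its group means were 6.88 ± 4.68 (SD, n = 3) in M neurons, 8.52 ± 1.99 in P neurons, 5.02 ± 4.83 in M layers and 7.03 ± 5.03 in P layers, so it did not show the order of the brighter VWF probe set. The second SLC2A1 probe set (MmugDNA.42958.1.S1_at) read 2.88, 0.948 and 2.47 in M neurons, 12.1, 3.16 and 19.5 in P neurons, 15.3, 12.7 and 10.2 in M layers and 7.75, 2.40 and 13.1 in P layers. Its M groups separated as the brighter probe set's did, as in 7.12% of tested probe sets. Its P groups overlapped and their means went the other way, with 11.6 ± 8.20 (SD, n = 3) in P neurons and 7.73 ± 5.33 in P layers. All 3 had means under the filter of 12.6, which is also the middle of all probe sets.

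M and P layers could not be told apart in any member. The M minus P difference in layers was -0.00 for P2RY12 (95% interval -0.50 to 0.50), 0.12 for ITGAM (-0.35 to 0.59), -0.03 for VWF (-0.58 to 0.52) and 0.05 for SLC2A1 (-0.35 to 0.44). Adjusted p values from limma ran from 0.997 to 0.999. These intervals leave room for differences in either direction of up to 0.59, so they do not show equal levels. No member was called, where 0.159% of tested probe sets (42) were called, and a replicate block raised the count to 89. The count over all probe sets was 10 without P layer array 3, 23 without P layer array 2 and 25 without P layer array 1.

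The neuron captures gave the same picture. The M minus P difference was 0.14 for P2RY12, 0.19 for ITGAM, 0.03 for VWF and -0.01 for SLC2A1, with limma adjusted p from 0.928 to 0.997. No member was called, where 0.296% of probe sets (78) were called, and a replicate block raised the count to 189. That count was 28 without P neuron array 2 and 44 without M neuron array 2.

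Within station 5, which held M layer array 3 and the 3 P layer arrays, the M minus P difference in layers was -0.06 for P2RY12, 0.26 for ITGAM, -0.10 for VWF and 0.33 for SLC2A1, each uncalled in limma (adjusted p from 0.730 to 0.961, with the lone M array assumed to vary like the others). Within station 3 the M minus P difference in neurons was 0.42, 0.02, -0.52 and 0.19 in the same gene order. That station held 1 P neuron array, assumed to vary like the others, so these are given as values.

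The change from neuron to layer capture was not shown to differ between M and P. The difference of differences was -0.14 ± 0.34 (SE) for P2RY12, -0.07 ± 0.32 for ITGAM, -0.06 ± 0.37 for VWF and 0.05 ± 0.27 for SLC2A1. Over all probe sets limma called 0% for this term, and 742 (2.81%) had an unadjusted p under 0.05. That share is less than the cutoff would pass on average with no true difference. In the 4 tested probe sets both neuron means lay below both layer means, and M and P of one capture did not differ beyond their spread. The dim second probe sets of VWF and SLC2A1 did not keep that order.

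Other microglial and macrophage markers moved in both directions between captures. The list was chosen with earlier results of these data known, and 21 of its 33 genes were tested on their brightest probe set. In layer captures 4 were called higher and 2 lower, with a median difference of 0.15. Over all 10030 tested genes, read the same way, 5.21% were called higher and 24.3% lower, with a median of -0.17, and each list count below is to be read against these shares. Without P2RY12 and ITGAM the counts were 2 higher and 2 lower of 19, with a median of 0.11. A station block left 0 called higher and 0 lower. Without that block the differences of the tested genes ran from -0.92 to 0.83.

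PTPRC (CD45), the phosphatase of all blood-lineage leukocytes, rose by 0.60 ± 0.15 (SE; limma, adjusted p = 0.0073), from 23.6 and 22.8 in M and P neurons to 52.1 and 35.8 in M and P layers. Its second tested probe set differed by 0.12. SLCO2B1, an organic anion transporter, rose by 0.53 ± 0.15 (limma, adjusted p = 0.0141), while its second tested probe set differed by -0.09. CSF1R, the receptor for the growth factor that keeps microglia alive, differed by 0.40 (limma, adjusted p = 0.0845), and TYROBP, the signalling adaptor of TREM2, by 0.46 (adjusted p = 0.0951). CSF1R and TYROBP were chosen after their values were seen, and both became calls when arrays were scaled to one trimmed mean. Called or not, 14 of 21 tested list genes had positive differences in M and P together, and 12 of 21 in P alone. Lower in P layers, each uncalled, were C1QA (-0.52), CD68 (-0.37) and CX3CR1 (-0.15), also picked after their values were seen.

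GPR34 and IRF8 ran the opposite way and are bright. GPR34, a lysophospholipid receptor of microglia, fell by 0.92 on the log2 scale in layer captures (SE 0.16, limma, adjusted p = 0.000369), from 316 and 275 in M and P neurons to 152 and 149.5 in M and P layers. IRF8, a transcription factor of myeloid cells, fell by 0.55 (SE 0.13, adjusted p = 0.00306), with 1764 and 1930 in neurons against 1061 and 1480 in layers. The IRF8 call was lost after quantile normalisation (limma, adjusted p = 0.180) and scaling (0.147), and its second tested probe set differed by 0.35 in the other direction. TMEM119, C1QB and HAVCR2 lay below the filter.

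Summed over the 19 tested list genes that are not members, the signal ran from 4564 to 5436 in M neurons, 4656 to 5089 in P neurons, 3463 to 3975 in M layers and 3492 to 4470 in P layers. IRF8, CD68 and MRC1 are the brightest of them, with means of 1558, 1145 and 948 over the 12 arrays. Of these only IRF8 was called. A sum over different probe sets is set by the brightest, and the median difference of the 19 genes was 0.11.

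Among endothelial and barrier genes more were higher than lower in layer captures. Of 31 genes 20 were tested, 6 were called higher and 1 lower (5.21% and 24.3% over all genes), and the median was 0.27. Without VWF and SLC2A1 the counts were 4 higher and 1 lower of 18, with a median of 0.17. A station block left 3 called higher and 0 lower. Without that block the differences of the tested genes ran from -1.04 to 1.19. The calls higher numbered 4 without P neuron array 3, M layer array 2 or 3, or P layer array 2.

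SLCO1A2, an organic anion transporter of brain capillaries, had the largest rise of the list, at 1.19 ± 0.17 (SE; limma, adjusted p = 5.3e-05), from 88.9 and 173 in M and P neurons to 279 and 331 in M and P layers. Its second probe set also rose, by 0.47, and with the station as a block the difference was 1.54 (adjusted p = 0.041). PECAM1 (CD31), a junction protein of endothelium that platelets and leukocytes share, rose by 0.60 ± 0.14 (limma, adjusted p = 0.00415), with its other tested probe sets at 0.56 and -0.12. The PECAM1 difference with a station block was 0.15.

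TEK, the angiopoietin receptor, rose by 0.54 ± 0.17 (SE; limma, adjusted p = 0.0281), and ITM2A rose by 0.53 ± 0.16 (adjusted p = 0.022). Both were named after their values were seen. The second tested TEK probe set was at -0.0050 (limma, adjusted p = 0.986). TEK differed by -0.11 with the station as a block, and its call was lost without any one of 6 of the 12 arrays (M neuron arrays 2 and 3, P neuron array 3, M layer arrays 2 and 3, and P layer array 2), with adjusted p from 0.0503 to 0.0824. The ITM2A call was lost without M neuron array 1, P neuron array 1 or 3, M layer array 2 or 3, or P layer array 2, with adjusted p from 0.0551 to 0.0593, and its second tested probe set rose by 0.88.

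FLI1, an ETS transcription factor of endothelial and blood cells, fell by 1.04 on the log2 scale (SE 0.13, limma, adjusted p = 1.8e-05), from 601 and 527 in M and P neurons to 269 and 265 in M and P layers. Of its other tested probe sets, MmugDNA.20351.1.S1_at fell by 0.94 and MmugDNA.32180.1.S1_at rose by 0.63, each called. CLDN5, the main claudin of the barrier, differed by 0.25 (adjusted p = 0.315) and was called after quantile normalisation (0.0482). FLT1, KDR, EGFL7, SOX18 and SLC7A5 lay below the filter.

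The tested mural list (pericytes and smooth muscle) had 11 of 17 genes, with 2 called higher, 1 lower (5.21% and 24.3% over all genes) and a median of -0.01. KCNJ8, a potassium channel of pericytes, rose by 0.87 ± 0.21 (SE; limma, adjusted p = 0.00406), and differed by -0.02 with the station as a block. NOTCH3, the receptor of vascular smooth muscle, gave 0.39 (adjusted p = 0.0492) and ANPEP, a surface peptidase, -0.34 (adjusted p = 0.0497). The second tested probe set was at -0.05 for NOTCH3 and 0.13 for ANPEP. Both calls were lost with the replicate block (0.0522 and 0.0575). NOTCH3 was called without M neuron array 1 or 2 or M layer array 1 only, and ANPEP without M neuron array 2 only.

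Blood cell genes were dim. Of 18 genes 4 were tested and limma called 0 of them, with a median of -0.17. HBB, the beta chain of haemoglobin, had group means of 18.6, 18.2, 17.1 and 23.1 in M neurons, P neurons, M layers and P layers.

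Markers of other cells are given against the same shares over all genes, 5.21% higher and 24.3% lower with a median of -0.17. Of the astrocyte list, 6 of 9 tested genes were called higher in layer captures and 0 lower, with differences from 0.25 to 1.29, a median of 0.78 and summed signals of 2824 to 4721 in M neurons, 3287 to 3363 in P neurons, 7031 to 8145 in M layers and 5089 to 5958 in P layers. Of the oligodendrocyte list, 3 of 5 were higher and 0 lower (median 0.50). Of the neuronal list, 0 of 8 were higher and 3 lower (median -0.20), a median near that of all genes, with sums of 26052 to 29487 in M neurons, 22983 to 26396 in P neurons, 22103 to 25732 in M layers and 19737 to 22783 in P layers. FGFR3, a receptor of astrocytes, rose by 1.29 and SLC1A3, the glial glutamate transporter, by 1.09. GFAP rose by 0.73 on its brightest probe set, but its other probe set fell by 0.54 (limma, adjusted p = 0.0304). In the neuronal list the tubulin TUBB3 fell by 0.72 and the neuronal enolase ENO2 fell by 0.91 on the log2 scale. Of the 8 tested neuronal genes 3 had positive differences, none called, of up to 0.41. SLC2A1 is shared between endothelium and astrocytes, and the part of the astrocyte difference in its rise was not tested.

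Genes that work with the members were read against the same shares, 5.21% higher and 24.3% lower over all genes. In the purine signalling list, P2RY12 was the 1 gene called of 9 tested, and ENTPD1 (CD39), which breaks down extracellular ATP and ADP, was at 0.43 (limma, adjusted p = 0.0526). ENTPD1 was at -0.03 in M and was called in P, at 0.89 (limma, adjusted p = 0.0146). In the integrin list 3 of 8 were called higher and 2 lower. ITGB2, the beta subunit that pairs with ITGAM, was at 0.24 (limma, adjusted p = 0.505) with group means of 15.7, 16.9, 29.5 and 16.04 in M neurons, P neurons, M layers and P layers. ITGB2 was named after its values were seen. ITGB5, which pairs with ITGAV, rose by 0.56 ± 0.14 (SE; limma, adjusted p = 0.00628), with a second probe set at 0.58, and ITGAV fell by 0.81 on the log2 scale, though its group means were only 4.50 to 25.5.

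Of 5 tested partners in the VWF list, counting VWF, 1 was called higher and 1 lower. The lower one was RAB27A, a GTPase of secretory granules including those that store VWF, at -0.48 (limma, adjusted p = 0.023), while its second tested probe set was at -0.04 (adjusted p = 0.885). The call was lost after scaling to one trimmed mean (0.173). Its call was also lost without M neuron array 1, P neuron array 1, M layer array 1 or 3, or P layer array 1, with adjusted p from 0.0515 to 0.0717. ADAMTS13, the protease that cleaves VWF, was at -0.07.

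Of 12 tested glucose and lactate transporters, SLC2A1 was the 1 called higher and 3 were called lower, where 5.21% of all genes were called higher and 24.3% lower. The lower count is near the share over all genes. SLC2A3 (GLUT3), the main glucose transporter of neurons, fell by 0.53 on the log2 scale (SE 0.13, limma, adjusted p = 0.00513), from 202 and 207 in M and P neurons to 151 and 124 in M and P layers. SLC16A7 (MCT2), a lactate transporter of neurons, fell by 1.18 (SE 0.23, adjusted p = 0.00102), from 241 and 233 to 95.4 and 108, and a second probe set fell by 0.67. SLC2A11 fell by 0.79 (adjusted p = 0.000125). The SLC2A3 call was lost after quantile normalisation (limma, adjusted p = 0.0740), and its other 3 tested probe sets were not called.

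No gene of the microglial, endothelial or mural lists was called between M and P layers. The microglial gene with the smallest p was CD74, the invariant chain of class II antigen presentation, at 0.97 (limma, adjusted p = 0.557), and the endothelial one was ITM2A at -0.50 (adjusted p = 0.837). Among other lists GFAP, the astrocyte filament protein, was at 1.03 (adjusted p = 0.0674), called with the replicate block (0.00164), and its second probe set was at -0.06.

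Over the 12 arrays, the named genes whose log2(signal + 16) was most like each member were taken from 9348 genes by Pearson's r, as a description. The points share the capture of their group. Over deviations from the group means, r for the 20 gene pairs ran from 0.63 to 0.94. The deviations are part of the values by which the genes were chosen, so high r here is partly built in. For P2RY12 the genes were LINGO3 (r = 0.91 over the 12 arrays), SSH2, SNX18, GASK1B and CTNNA1. For ITGAM they were E2F5 (0.94), PHYHIPL, NCSTN, SNX6 and CHI3L1. For VWF they were CBFB (0.93), MRPL44, COL4A5, ADA and LYN, where COL4A5 is a chain of basement membrane collagen and LYN a kinase of leukocytes. For SLC2A1 they were WWTR1 (0.97), NOTCH2, TNS3, MAMU-B and SDC4. The highest neuron array for WWTR1 was 51.1 and the lowest layer array 63.0, a separation shown by 1.96% of all tested probe sets. WWTR1 was picked for its likeness to SLC2A1, which separates the captures, so this too is partly built in.

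The members correlated with each other at r from 0.61 (P2RY12 and VWF) to 0.78 (P2RY12 and SLC2A1) over the same 12 arrays. Once each group's mean was removed, r ran from -0.58 (VWF and SLC2A1) to 0.45 (ITGAM and VWF).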

How the data were processed

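Values were deposited as linear intensity, a MAS5 signal per probe set, per the submitters' processing notes, for 12 rhesus arrays in 4 groups of 3. The MAS5 version is not given. Detection calls and sequences were not used here. The rhesus array holds 52865 probe sets, of which 99 are controls; 24956 carry 1 symbol, 361 several and 27449 none in the platform annotation, which can be old.

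Tests used limma 3.58.1 (R 4.3.3). Values entered as log2(signal + 16), for 26383 probe sets whose mean reached the median of 12.6, as 4 group means with an intensity trend (8 residual and 11.7 prior degrees of freedom). They were two-sided, with Benjamini-Hochberg adjustment over all of these and a call at 0.05. The number of arrays limits the precision. Replicates are individual animals per the series' design text. The script was tested on simulated data. Gene lists were read on each gene's brightest probe set, and named list genes are those with the smallest p, up to 5 in layer against neuron captures and 3 in M against P layers. The members and lists were chosen with earlier results of these data known.

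Same-numbered arrays of 2 groups deviated together, with correlations of 0.0997 to 0.259 over 12 pairs. All but 1 (P neuron and P layer arrays numbered 3) passed 0.1. Arrays with different numbers were not compared, and the labels do not pair the arrays. Deviations cancel within a group, so positive values at the same number go with lower ones, on average, between different numbers. Same-numbered arrays thus shared part of their deviation, and the source of this was not tested. The reported fit leaves the numbers out, and counts of same-numbered pairs are descriptions. Alternatives were pseudocounts of 1 and 64, no filter, a stricter filter, quantile normalisation, 1 trimmed mean (2% trimmed) per array, replicate number or station as a block, fits within a station, no trend, only the groups compared, and leaving out each array. The 2 human arrays carry labels that disagree and entered no comparison.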

Additional observations from a re-analysis of the deposited data

How the results depend on the processing

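The layer minus neuron differences of the 4 members kept their direction under every alternative run. The station block changed most: it left 36, 112 and 626 probe sets called in M, in P and in both together (2819, 2682 and 6355 as reported), with 0, 0 and 1 members called, and 14 and 10 called for M minus P in layers and neurons. With no filter 1 member was called in M and 1 in P, with more probe sets tested and larger standard errors for P2RY12, ITGAM and VWF. The joint ITGAM call was lost there (limma, adjusted p = 0.0783), as were P2RY12 in M (0.108) and P (0.0531) and VWF in M (0.0985) and P (0.0766). A pseudocount of 1 left 1 member called in M. A fit of only the groups compared called 1663 in M. VWF lay under the stricter filter.

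M minus P counts, 42 in layers and 78 in neurons, were 15 and 45 with no filter, 70 and 127 after quantile normalisation, 64 and 128 after scaling, and 89 and 189 with the replicate block; layers gave 27 with no trend and neurons 35 within station 3. The replicate block changed no member's call. Leaving out 1 array gave 1373 to 3608 calls in M, 1034 to 3343 in P, 4935 to 7405 in both together, 10 to 43 in M minus P layers and 28 to 87 in neurons, with 1 to 3, 1 to 3, 3 to 4, 0 and 0 members called.

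Sign changes fell on uncalled differences or on the station block. In M minus P layers P2RY12 was 0.00034 at a pseudocount of 1 and SLC2A1 -0.050 after quantile normalisation and -0.036 after scaling. In neurons VWF was -0.0091 at a pseudocount of 64, -0.0050 after quantile normalisation and -0.52 with the station block and within station 3, and SLC2A1 was 0.012, 0.19 and 0.19 under the last 3. In the interaction the station block gave 0.25 for ITGAM and 0.41 for VWF, and SLC2A1 was -0.062 after quantile normalisation and -0.028 after scaling. The station block gave -0.11 for TEK, -0.022 for KCNJ8 and -0.29 for CLDN5, and HBB was -0.078 at a pseudocount of 1. Leaving out 1 array, layers ran from -0.18 to 0.11 (P2RY12), -0.15 to 0.033 (VWF) and -0.096 to 0.19 (SLC2A1). Neurons ran from -0.062 to 0.40 (P2RY12), -0.051 to 0.41 (ITGAM), -0.34 to 0.30 (VWF) and -0.10 to 0.15 (SLC2A1). The interaction ran from -0.40 to 0.060, -0.29 to 0.17, -0.33 to 0.31 and -0.10 to 0.20 for P2RY12, ITGAM, VWF and SLC2A1, and HBB from -0.14 to 0.14. Where construction does not show it, the cause was not tested.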

Other observations

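Vervet RNA was also hybridised to 2 human arrays, whose labels disagree on the capture, so their values stand alone. The brighter SLC2A1 probe set read 241 and 156, at percentiles 94.2 and 93.0 of its array, and the other SLC2A1 probe set 6.45 and 10.8. One ITGAM probe set read 28.1 and 5.15 and the other 30.1 and 14.9. One VWF probe set read 3.86 and 15.8 and the other 5.44 and 3.11. One P2RY12 probe set read 1.59 and 1.99 and the other 15.4 and 7.94. The median signal of these arrays was 11.3 and 9.78.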
